A study of Homo sapiens with 6 samples.

Results

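The 10 genes described here are ERN1, ATF6, XBP1, HSPA5, HSP90B1, CALR, PDIA4, DNAJB9, SDF2L1 and HERPUD1, which are sensors and targets of the IRE1 and ATF6 arms of the endoplasmic reticulum (ER) unfolded protein response. They were chosen by gene symbol, and all 10 were found among the 19845 gene symbols counted and passed the filter on low counts, which left 11861 genes. The 6 RNA libraries came from Molm13-Cas9 cells, a human line of MLL-rearranged acute myeloid leukemia (AML) made to express Cas9. All 6 carried the ipUSEPR lentiviral vector under puromycin selection. In 3 of them the vector expressed a guide against non-essential sequence (sgCtrl #1, #2 and #3), and in the other 3 a guide against COX4I1, a subunit of mitochondrial Complex IV (sgCOX4I1 #1, #2 and #3). Each library of a group carried a guide of its own, so the spread within a group includes differences between guides, and no guide was repeated. In bulk RNA, fewer cells with a transcript and less of it per cell cannot be told apart.

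Proteins that enter the secretory pathway fold in the ER, and unfolded protein there activates 3 sensors in the ER membrane. IRE1, the product of ERN1, splices the mRNA of XBP1 so that it encodes an active transcription factor, while ATF6 moves to the Golgi, is cut, and its released part enters the nucleus. PERK, the product of EIF2AK3, instead phosphorylates the initiation factor eIF2alpha and raises translation of ATF4, an arm that other eIF2alpha kinases also feed. ATF6 and spliced XBP1 raise the genes of ER chaperones and of ER-associated degradation, and HSPA5, which encodes BiP, is the classic readout of both. Counts per gene do not separate spliced from unspliced XBP1 mRNA or cut from whole ATF6.

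The DNA elements through which this response is known to act are shown first, because they differ between the genes that the results turn on. The ER stress response element (ERSE) was searched as CCAAT, any 9 bases and CCACG, ERSE-II as ATTGG, any 1 base and CCACG, the unfolded protein response element (UPRE) as TGACGTGG and the ATF4-type composite element (CARE) as TGATGCAA, each on both strands in the 250 bases before the RefSeq start. No matches of different motifs overlapped in these genes. ERSE was found before XBP1, HSPA5, HSP90B1 and CALR, with 2 copies before HSP90B1, and ERSE-II before SDF2L1 and HERPUD1. Both HSP90B1 copies lie before the RefSeq start but in a GENCODE exon of the gene, after its GENCODE start. Of 35116 RefSeq promoters, 0.074% held ERSE, 0.0513% held ERSE-II, 0.612% held UPRE and 0.772% held CARE. The ERSE consensus was itself defined on promoters such as that of HSPA5, so these matches are not independent of the choice of genes. Capitals mark the fixed letters of each motif, sequences are from RefSeq (GRCh38.p14) and read 5′ to 3′ on the strand of the gene, and a motif on the opposite strand appears as its reverse complement.

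HSPA5, ERSE, chr9:125241383-125241419, minus strand: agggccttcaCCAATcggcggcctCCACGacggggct
XBP1, ERSE, chr22:28800598-28800631, minus strand: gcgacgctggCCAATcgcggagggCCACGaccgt
HSP90B1, ERSE, chr12:103930216-103930234, plus strand: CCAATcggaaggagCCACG
HSP90B1, ERSE, chr12:103930321-103930339, plus strand: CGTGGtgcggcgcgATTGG
CALR, ERSE, chr19:12938374-12938412, plus strand: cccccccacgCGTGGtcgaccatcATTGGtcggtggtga
SDF2L1, ERSE-II, chr22:21642104-21642134, plus strand: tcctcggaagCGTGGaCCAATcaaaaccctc

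HERPUD1, the gene that passed the test below, is shown with its 250 bases before the start. Its ERSE-II lay from 117 to 107 bases before the start, and a CARE match, searched after its result was known, lay on the opposite strand from 176 to 169 bases before it. It was the 1 gene of the 10 with a CARE match, and no UPRE match was found before any of them. The letters searched were not found in these windows for ERN1, ATF6, PDIA4 and DNAJB9, nor at the second annotated start of XBP1 or PDIA4.

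HERPUD1, ERSE-II and CARE, chr16:56931892-56932141, plus strand: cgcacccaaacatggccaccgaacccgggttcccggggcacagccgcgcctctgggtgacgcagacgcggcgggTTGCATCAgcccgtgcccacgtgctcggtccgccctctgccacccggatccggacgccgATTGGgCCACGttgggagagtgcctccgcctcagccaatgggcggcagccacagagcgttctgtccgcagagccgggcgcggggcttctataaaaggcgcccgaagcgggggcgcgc

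**Figure D1:**
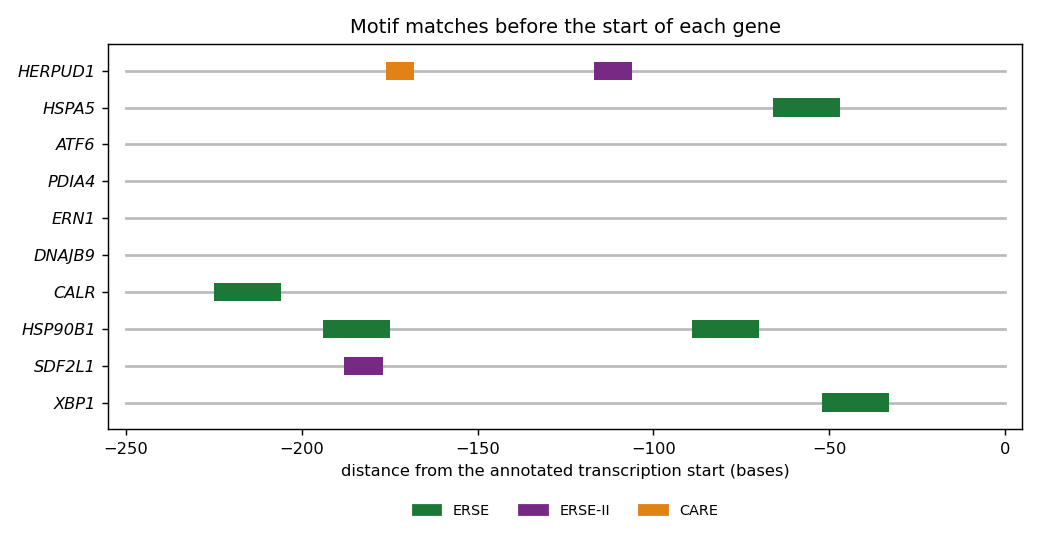
Positions of the ERSE, ERSE-II and CARE matches in the 250 bases before the annotated start of each gene, with distance in bases on the x axis and 1 line per gene. The matches before HSPA5 and XBP1 lay within 66 bases of the start, and HERPUD1 held both an ERSE-II and a CARE match.

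The libraries held from 17241014 to 30861943 counts, with sgCOX4I1 #2 the shallowest and sgCOX4I1 #3 the deepest. All 8 myeloid markers fixed for the line (PTPRC, CD33, SPI1, FLT3, LYZ, CSF1R, ITGAM and CEBPA) were present, with summed levels from 3075 to 3874 in sgCtrl and 3685 to 4894 in sgCOX4I1 and mean levels per gene from 50.3 to 2153 CPM (counts scaled to a common library size after TMM normalization). Of these 8, LYZ went from 1590 ± 479 CPM in sgCtrl to 2717 ± 600 CPM in sgCOX4I1 (SD, n = 3 each). The log2 fold change was below 0 for 5 of the 8, with a median of -0.041, and edgeR called 0 of them. The summed level of 3 T cell markers was at most 0.0543 CPM in sgCtrl and 0 in sgCOX4I1 libraries, and 3 B cell markers summed to 0.393 to 1.09 CPM in sgCtrl and 0.192 to 0.581 in sgCOX4I1. Of 4 epithelial and mesenchymal markers, EPCAM and COL1A2 had 0 counts, and the sum was 3.37 to 3.87 CPM in sgCtrl and 1.92 to 3.25 in sgCOX4I1. COX4I1 mRNA was at 26.7%, 76.7% and 27.0% of the sgCtrl mean in sgCOX4I1 #1, #2 and #3, with a log2 fold change of -1.21 (standard error 0.29, edgeR adjusted p = 0.0512, and 0.243 with DESeq2). The library labelled sgCOX4I1 #2 thus had the smallest loss of its target mRNA. Without it the COX4I1 log2 fold change was -1.89 (edgeR adjusted p = 3.37e-06). The calls below are also given without it, apart from those counted by UPRE and CARE matches.

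The study sequenced these cells to find the consequences of COX4I1 depletion, and the 10 genes are compared here between its 2 groups. HERPUD1 rose 1.32-fold and was the 1 gene of the 10 called by edgeR (quasi-likelihood test, adjusted p under 0.05), where 2.08% of all genes tested were called, 1.06% higher and 1.02% lower. An unadjusted p under 0.05 was reached by 4 of the 10, all higher, and by 17.3% of all genes. HSPA5 was 1.23-fold higher with an adjusted p of 0.0560, ATF6 and PDIA4 were 1.16-fold higher without passing the threshold, and XBP1 was the 1 gene with a lower mean in sgCOX4I1. The log2 fold changes of the 10 genes had a median of 0.13, against -0.002 over all genes tested, and 9 of the 10 were above 0, against 49.4% of all genes. None of the 10 reached the 2-fold change that the study required beside the adjusted p, which 0.202% of all genes did, and their 95% intervals ran from -0.39 at the lowest to 0.57 at the highest on the log2 scale, short of a 2-fold change in either direction.

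**Figure D2:**
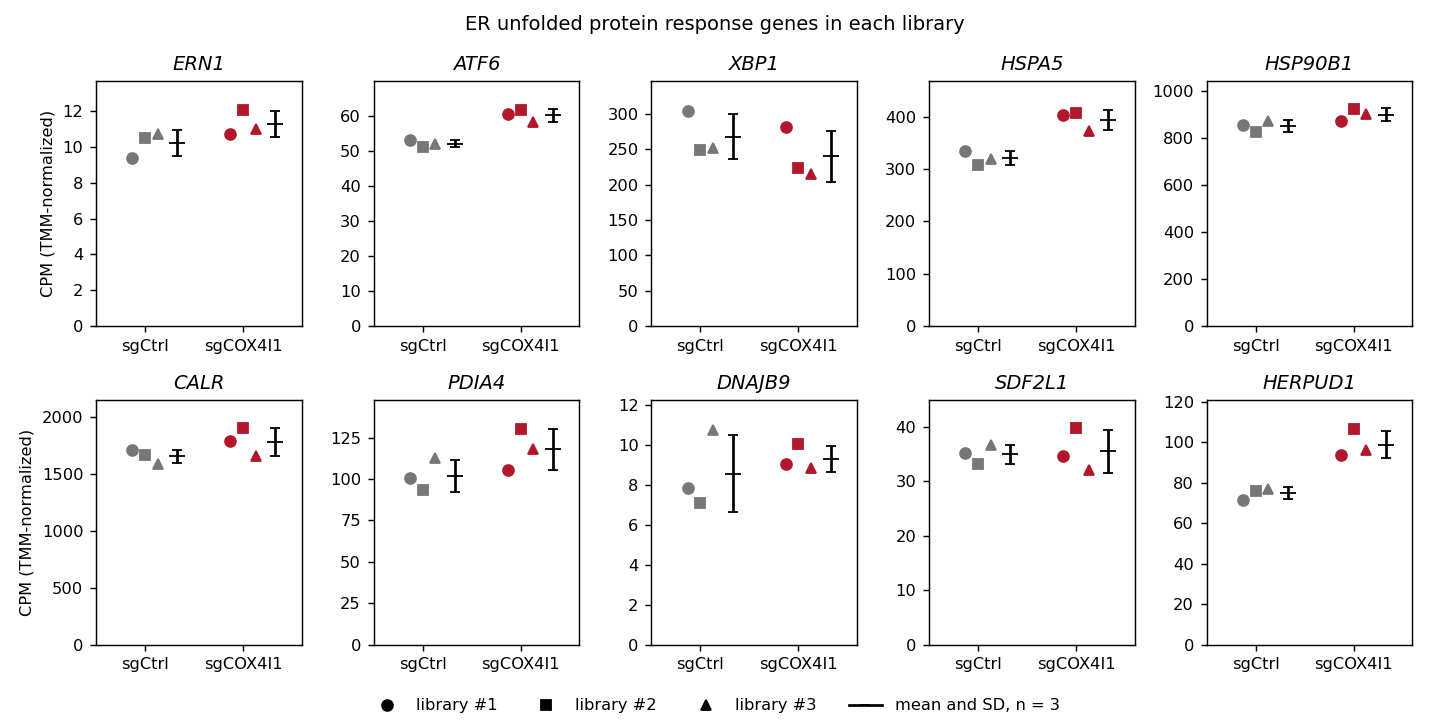
TMM-normalized CPM (y axis, from 0) of each of the 10 genes in the 3 sgCtrl (gray) and 3 sgCOX4I1 (red) libraries, with the symbol giving the library number and the bar the mean and SD of the group. For HERPUD1, HSPA5 and ATF6 every red point lay above every gray point by a visible gap, and for XBP1 and SDF2L1 the groups overlapped.

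HERPUD1 (chr16:56932142-56944864, plus strand, GRCh38, as annotated in GENCODE) encodes a protein of the ER membrane that helps to assemble the complex for ER-associated degradation, in which misfolded proteins are sent to the proteasome. Its mRNA was 71.4, 76.0 and 77.1 CPM in sgCtrl #1, #2 and #3, against 93.5, 106 and 96.4 CPM in sgCOX4I1 #1, #2 and #3. The 2 groups were well apart, and sgCOX4I1 #2 was the highest library. The mean rose from 74.8 ± 3.02 to 98.8 ± 6.74 CPM (SD, n = 3 each), and the log2 fold change was 0.40 (standard error 0.077, 95% interval 0.23 to 0.57, edgeR adjusted p = 0.0203). Its size held when any 1 library was left out, between 0.35 and 0.44. The call did not, since the edgeR adjusted p was 0.134 without sgCtrl #2, 0.107 without sgCOX4I1 #2 and 0.0542 without sgCOX4I1 #3. In those same fits the number of genes called among all genes fell from 247 to 24, 51 and 89.

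The lumenal chaperones came next. HSPA5 (chr9:125234853-125241382, minus strand), which encodes BiP, the ER member of the HSP70 family that binds unfolded chains and holds the 3 sensors inactive, was 334, 308 and 318 CPM in sgCtrl #1, #2 and #3. In sgCOX4I1 #1, #2 and #3 it was 402.5, 407 and 372 CPM. All sgCOX4I1 libraries lay above all sgCtrl libraries, with sgCOX4I1 #3 the lowest of them. The means were 320.3 ± 13.2 and 393.9 ± 18.7 CPM (SD, n = 3 each), with a log2 fold change of 0.30 (standard error 0.074, 95% interval 0.14 to 0.46). The edgeR adjusted p was 0.0560, so HSPA5 was not called, although DESeq2 gave 0.00495 and limma-voom 0.0464. Over all 12 alternatives its adjusted p ran from 0.00269 to 0.277, and without sgCOX4I1 #2 it was 0.179 with a log2 fold change of 0.28.

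HSP90B1 and CALR, the most abundant of the 10 genes, differed little between the groups. HSP90B1 (chr12:103930107-103953931, plus strand), which encodes GRP94, the HSP90 chaperone of the ER, was 855, 827 and 874 CPM in sgCtrl #1, #2 and #3, against 874, 926 and 902.5 CPM in sgCOX4I1 #1, #2 and #3. The groups overlapped slightly, and the log2 fold change was 0.080 (95% interval -0.084 to 0.25, edgeR adjusted p = 0.642). CALR (chr19:12938578-12944489, plus strand), which encodes calreticulin, the lectin chaperone that binds glycoproteins and calcium, was 1707, 1669 and 1590 CPM in the control libraries and 1788, 1905 and 1659 CPM in sgCOX4I1. Its groups overlapped, with a log2 fold change of 0.11 (95% interval -0.080 to 0.30, edgeR adjusted p = 0.571). HSP90B1 and CALR hold exact ERSE matches as HSPA5 does, and their intervals allow a rise of at most 0.25 and 0.30 on the log2 scale.

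Among the folding enzyme and cochaperones, PDIA4 (chr7:149003062-149028662, minus strand), a protein disulfide isomerase, was 100.5, 93.2 and 112 CPM in sgCtrl #1, #2 and #3, against 105, 130.2 and 118 CPM in sgCOX4I1 #1, #2 and #3. The groups overlapped through sgCtrl #3 and sgCOX4I1 #1, and the log2 fold change was 0.21 (standard error 0.093, edgeR adjusted p = 0.272). DNAJB9 (chr7:108569867-108574850, plus strand), which encodes ERdj4, a J-domain cochaperone of BiP and a sensitive target of spliced XBP1, was 7.85, 7.11 and 10.8 CPM in the control libraries and 9.04, 10.1 and 8.83 CPM in sgCOX4I1. Its highest library was a control, sgCtrl #3, and with 131 to 276 counts per library it had the widest interval of the 10 genes (log2 fold change 0.11, 95% interval -0.25 to 0.47, edgeR adjusted p = 0.782). SDF2L1 (chr22:21642302-21644299, plus strand), a component of a lumenal complex with BiP cochaperones, was 35.1, 33.2 and 36.7 CPM in the control libraries and 34.6, 39.8 and 32.1 CPM in sgCOX4I1. The highest and the lowest library were both from sgCOX4I1, and the log2 fold change was 0.016 (95% interval -0.19 to 0.23, edgeR adjusted p = 0.956).

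The sensors and the transcription factor did not pass the test. ATF6 (chr1:161766298-161977574, plus strand) was 53.2, 51.1 and 51.8 CPM in sgCtrl #1, #2 and #3, against 60.6, 61.6 and 58.1 CPM in sgCOX4I1 #1, #2 and #3. The groups were apart and the spread within each was small, 2.04% and 2.94% of the mean, yet at a log2 fold change of 0.21 (standard error 0.074) the edgeR adjusted p was 0.169. ERN1 (chr17:64039080-64130819, minus strand), which encodes IRE1alpha, was 9.37, 10.5 and 10.71 CPM in the control libraries and 10.74, 12.1 and 11.03 CPM in sgCOX4I1. The groups touched without overlapping, with a log2 fold change of 0.14 (95% interval -0.13 to 0.42, edgeR adjusted p = 0.620). Groups that did not overlap were found in 4 of the 10 genes, HERPUD1, HSPA5, ATF6 and ERN1, each higher in sgCOX4I1, against 11.2% of all genes higher and 10.4% lower, or 21.6% in all.

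XBP1 (chr22:28794555-28800597, minus strand), the substrate of IRE1 and a target of ATF6, was 304, 248 and 251 CPM in sgCtrl #1, #2 and #3, against 281, 223 and 215 CPM in sgCOX4I1 #1, #2 and #3. Library #1 was the highest of each group, and the groups overlapped through it. The log2 fold change was -0.16 (standard error 0.11, 95% interval -0.39 to 0.070, edgeR adjusted p = 0.477). Without sgCtrl #1 it was -0.061 and without sgCOX4I1 #1 -0.29, and it was not called in either fit.

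**Figure D3:**
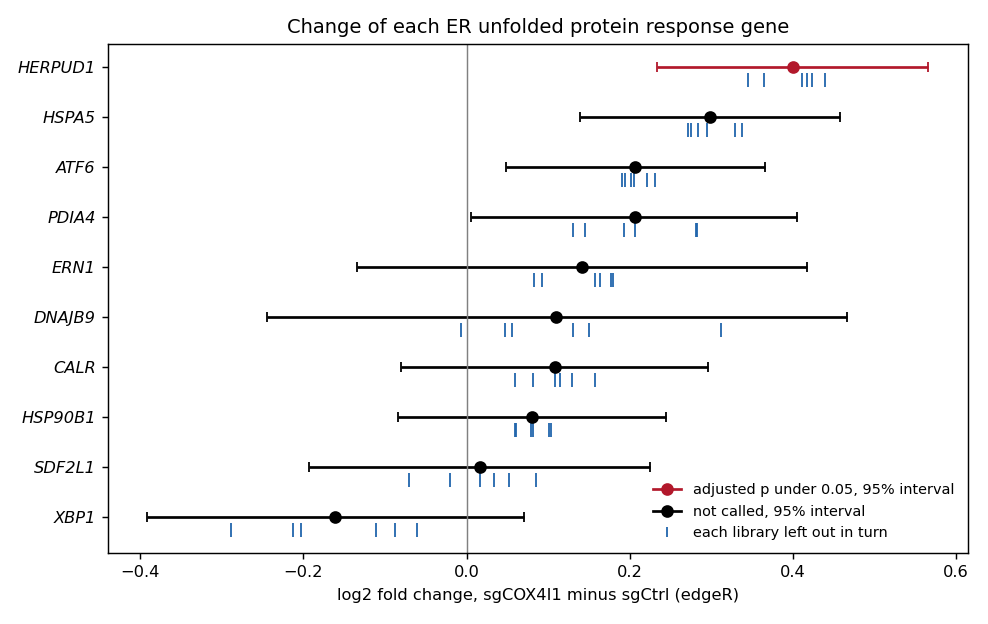
Log2 fold change of each gene in sgCOX4I1 against sgCtrl (x axis), with the 95% interval from edgeR's fit, red where the adjusted p was under 0.05, and blue ticks for the fits that each left out 1 library. HERPUD1 was called, at 0.40, while XBP1 lay below 0 and DNAJB9 and SDF2L1 had ticks on both sides of 0.

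Within the sgCOX4I1 group, #2 alone stood apart in COX4I1 mRNA, with the smallest loss, while #1 and #3 were close to each other. The study's immunoblots showed less COX4I1 protein with 3 independent guides, and the protein left in each RNA library is not given. For 9 of the 10 genes, all but XBP1, the highest sgCOX4I1 library was #2, the one with the smallest loss of COX4I1 mRNA, against 33.1% of all genes tested, 28 of 84 other ER genes and 8 of 14 cytosolic chaperones. HERPUD1 stood at 142% of the sgCtrl mean in sgCOX4I1 #2 and at 125% and 129% in #1 and #3, and PDIA4 at 128% in #2 and at 103% and 115% in #1 and #3. HSPA5 was at 127% in #2 and close to it, 126%, in #1. Among genes of the PERK and ATF4 arm, 6 of 22 were highest in #2 and 16 in #1. In the sgCtrl group, the lowest library was #2 for 7 of the 10 genes. This held for 3400 of all 11861 genes tested, 32 of 84 other ER genes and 8 of 14 cytosolic chaperones. These counts were made after the values had been seen, and the 10 genes share libraries and are not independent of each other. The part of the shallower sequencing of sgCOX4I1 #2 in them was not tested.

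Levels per length set the genes in a wide range. In CPM per kilobase of the canonical GENCODE transcript, the sgCtrl means were 871 for CALR, 306 for HSP90B1, 149.6 for XBP1, 81.7 for HSPA5, 42.4 for SDF2L1, 36.9 for PDIA4, 26.2 for HERPUD1, 6.97 for ATF6, 3.56 for DNAJB9 and 1.29 for ERN1. SDF2L1 and PDIA4 overlapped between libraries on this scale, with 40.2 to 44.4 and 33.7 to 40.6 in sgCtrl, and no other neighbours in the order overlapped in sgCtrl. The 2 sensors were thus among the 3 lowest of the 10 per length, and the lumenal chaperones CALR and HSP90B1 the highest. Of the exonic bases of CALR, HSP90B1 and ERN1, 9.64%, 6.95% and 4.62% lie opposite other annotated genes, and XBP1 and HSPA5 each have 1 annotated pseudogene, so some of their reads could have been left uncounted or assigned elsewhere.

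Beyond these 10, 89 other ER genes were listed, of which 84 were tested and 1, HYOU1, rose, which is 1.19% against 2.08% of all genes. Their median log2 fold change was 0.015, close to that of all genes, with 47 above and 37 below 0. HYOU1, which encodes the ER chaperone GRP170 that exchanges nucleotide on BiP, was 87.6, 87.2 and 88.9 CPM in sgCtrl #1, #2 and #3, against 104, 117 and 112 CPM in sgCOX4I1 #1, #2 and #3. The groups were far apart, with a log2 fold change of 0.34 (standard error 0.073, edgeR adjusted p = 0.0341). With 1 library left out its log2 fold change stayed between 0.30 and 0.38, but the edgeR adjusted p was 0.199 without sgCtrl #2, 0.0509 without sgCtrl #3, 0.141 without sgCOX4I1 #2 and 0.1105 without sgCOX4I1 #3.

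Among the 25 other chaperones and folding enzymes the median log2 fold change was 0.047. FKBP11, a prolyl isomerase, went from 26.6 ± 7.72 to 18.0 ± 3.03 CPM (SD, n = 3 each) and SDF2, the paralog of SDF2L1, from 24.5 ± 1.85 to 20.5 ± 1.52 CPM, and neither was called (edgeR adjusted p = 0.136 and 0.224). CALU, a calcium-binding protein, and PDIA6, a disulfide isomerase, had log2 fold changes of 0.21 and 0.19 and were not called. TXNDC5, another disulfide isomerase, named after its values were seen, had the largest log2 fold change of the list, 0.66, at 1.46 and 2.31 CPM (edgeR adjusted p = 0.256). Of the 21 other genes of ER-associated degradation, 0 were called and 2 had an unadjusted p under 0.05. They were EDEM1, which draws misfolded glycoproteins into degradation (94.1 ± 8.70 to 115 ± 5.15 CPM, edgeR adjusted p = 0.0892), and SEL1L, the partner of the ubiquitin ligase HRD1 (50.5 ± 2.14 to 60.3 ± 3.62 CPM, edgeR adjusted p = 0.113). DERL3, DERL2 and OS9, which also act in this degradation, had log2 fold changes of -0.26, -0.16 and -0.13.

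For translocation into the ER and the early secretory pathway, 24 of 25 genes were tested and 0 were called, with 4 at an unadjusted p under 0.05 and the median at 0.016 (log2). SEC24D, a coat protein of vesicles that leave the ER, SRPRA, a subunit of the signal recognition particle receptor, and LMAN1, a cargo receptor, had log2 fold changes of 0.30, 0.22 and 0.21, and KDELR1, the receptor that returns ER chaperones from the Golgi, one of -0.18. SSR1, a subunit of the translocon-associated complex, had 0.12. Of 18 other sensors and regulators, 14 were tested, 0 were called and 0 had an unadjusted p under 0.05. EIF2AK3, which encodes PERK, went from 13.25 ± 1.06 to 14.1 ± 1.07 CPM (SD, n = 3 each), with a log2 fold change of 0.080 (95% interval -0.18 to 0.34). TRAF2, an adaptor of IRE1 signaling, and CREB3L4, a relative of ATF6, had log2 fold changes of -0.20 and -0.29, and the NF-Y subunits NFYA and NFYB and the XBP1 mRNA ligase RTCB had 0.13, -0.14 and 0.13. These 3 counts of 0 come from edgeR, and DESeq2 and limma-voom also called 0 in each of these lists.

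IRE1 also degrades a small set of mRNAs, of which 5 of 6 listed were tested and 0 were called by edgeR, DESeq2 or limma-voom, with 0 at an unadjusted p under 0.05. BLOC1S1, the best known of them, had 11 to 33 counts per library and went from 1.03 ± 0.412 to 1.08 ± 0.160 CPM (SD, n = 3 each). Its interval was -0.71 to 0.85 (log2), so a change inside that range could not be told from none at this depth. Of its exonic bases, 29.8% are shared with ENSG00000258311, a gene that overlaps it. HGSNAT, the 1 well-covered gene of the 5 tested, had a log2 fold change of -0.085 (95% interval -0.30 to 0.13), and SPARC, COL6A1 and PDGFRB had group means under 2 CPM.

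The list of the PERK and ATF4 arm, which other eIF2alpha kinases also feed, had a larger median log2 fold change than the 10 genes. Whether PERK or another of these kinases had a part in its values was not tested. Of 22 genes of the PERK and ATF4 arm, 9 were called, all higher in sgCOX4I1 (against 1.06% of all genes), and 7 were called without sgCOX4I1 #2. The 22 log2 fold changes had 0.44 as their median, with 19 above and 3 below 0. ATF4, DDIT3 and PPP1R15A, named after their values were seen, had log2 fold changes of -0.004, 0.22 and 0.11. They were not called (edgeR adjusted p = 0.988, 0.409 and 0.679). CHAC1, STC2, ATF5, SESN2 and PSAT1, the 5 with the smallest adjusted p, had log2 fold changes of 1.5, 1.29, 0.68, 0.68 and 0.72. The 95% intervals of CHAC1 and STC2 began at 1.145 and 0.96, above the 0.57 at which that of HERPUD1 ended. The intervals of ATF5, SESN2 and PSAT1 each began at 0.49 and overlapped that of HERPUD1. The difference between the 2 lists was not tested, and the second was written with its earlier result on these data known. HERPUD1 is known as a target of ATF6 and also of ATF4, and it was counted with the 10 genes alone.

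Chaperones of other compartments were set beside those of the ER. The 14 tested cytosolic chaperones had a median log2 fold change of 0.13, with 0 called by edgeR, 1 by DESeq2 and 0 by limma-voom, and 5 at an unadjusted p under 0.05. HSPA8, the constitutive cytosolic HSP70, went from 1214 ± 92.6 to 1507 ± 78.3 CPM (SD, n = 3 each, log2 fold change 0.31, edgeR adjusted p = 0.0871), about the size seen for HSPA5. HSPH1, HSP90AA1, BAG3 and DNAJB1, also chaperones or cochaperones of the cytosol, had log2 fold changes from 0.21 to 0.25. Of 13 mitochondrial chaperones and proteases, LONP1, the matrix protease, rose from 304.7 ± 13.9 to 380.2 ± 9.85 CPM (log2 fold change 0.32, edgeR adjusted p = 0.0369). Its adjusted p was above 0.05 with any 1 library left out, from 0.0547 to 0.156, and 0.144 without sgCOX4I1 #2. The others of the 5 with the smallest adjusted p, HSPA9, DNAJA3, TRAP1 and HSPD1, had log2 fold changes of 0.27, 0.20, 0.18 and 0.18 and were not called, and the list's median was 0.10. These medians lie close to the 0.13 of the 10 ER genes.

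**Figure D4:**
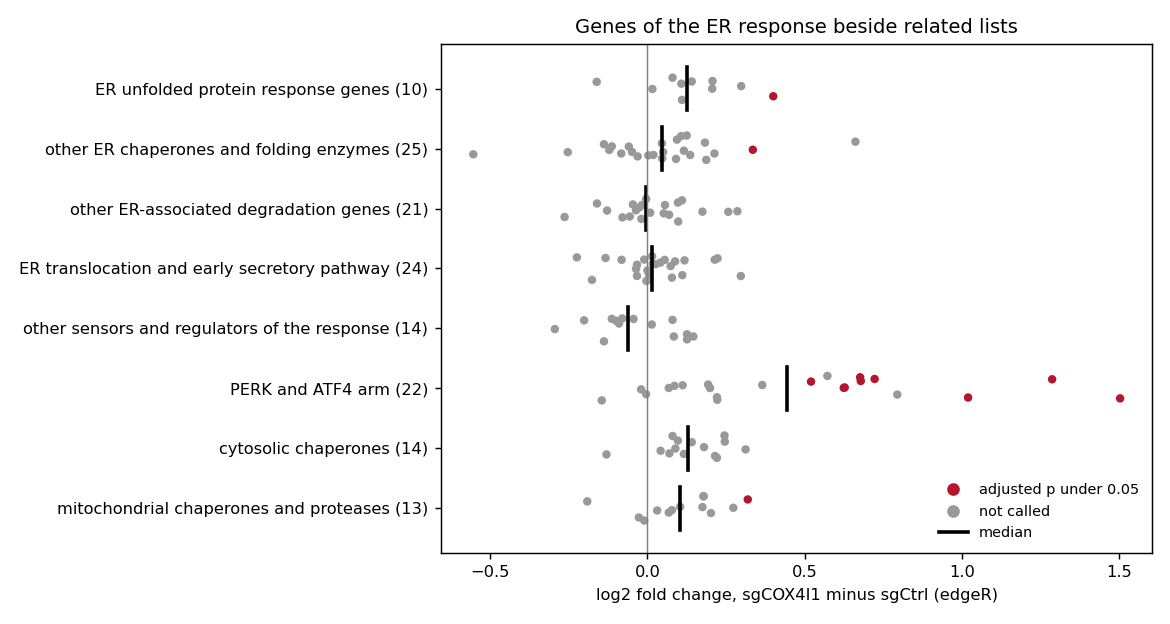
Log2 fold change in sgCOX4I1 against sgCtrl (x axis) of every tested gene of the 10 and of 7 other lists, with the number tested in brackets, red points for an adjusted p under 0.05 and a black line at the median. The 10 ER genes, the cytosolic chaperones and the mitochondrial chaperones had medians from 0.10 to 0.13, and the PERK and ATF4 arm one of 0.44.

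Other genes with these motifs were counted in the same way. All tested genes with ERSE or ERSE-II in this window numbered 29, of which 16 were above 0 and the median was 0.016 (log2), and 2 were called, both higher, namely HERPUD1 and HYOU1. Both carry ERSE-II, so that 2 of 13 tested genes with ERSE-II (15.4%) were called, against 2.08% of all genes, while the median of the 13 was -0.055. Without HERPUD1 and SDF2L1, 1 of 11 was called. With sgCOX4I1 #2 left out, neither HERPUD1 nor HYOU1 was called (edgeR adjusted p = 0.107 and 0.141). Of 16 tested genes with ERSE 0 were called, and of 88 with UPRE 2 were called (2.27%). Of the 61 with CARE, 4 were called higher and 3 lower (11.5%), with a median of 0.051. Without the 10 genes, the 23 other tested genes with ERSE or ERSE-II had a median of -0.044 with 11 above 0. Matches with 1 changed base or outside the 250 bases were not searched, and binding of ATF6 or XBP1 was not measured.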

How the data were processed

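The authors deposited whole-number read counts for 19845 gene symbols in 6 Molm13-Cas9 libraries, without normalization. Per the submitters' processing notes, reads were demultiplexed with bcl2fastq 2.20.0.422 and aligned to GRCh38 with STAR 2.6.0a, and the column names add marked duplicates and HTSeq counting, whereas the methods name Trimmomatic, Bowtie2 and RSEM. Libraries were prepared with a directional kit, and whether counting used the strand is not given in the sources used here. Columns were matched to samples by letter (C for sgCtrl, K for the knockout) and number.

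From the counts, TMM factors (0.987 to 1.01) and edgeR's quasi-likelihood test (edgeR 4.0.16, R 4.3.3, expression filter, no covariates) were computed on the 6 libraries, and p-values were adjusted over 11861 genes by the Benjamini-Hochberg method, with a threshold of 0.05. Standard errors and 95% intervals come from the same fit. The study gives an independent guide for each library of a group, so p-values rest on the spread between libraries. Differences between guides cannot be told apart from other differences between libraries. Replicates differed by more than sampling noise (chi-square per degree of freedom 11.0 to 27.6). With 3 libraries per group, an exact permutation test cannot go below p = 0.1. The main edgeR fit alone was tested on simulated counts. Of 200 genes changed 3-fold, 200 were called in the right direction, and 15 others were called. Smaller changes were not simulated.

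The genes and lists were chosen with earlier results of these data known. Named genes are the 10, COX4I1, the up to 5 smallest adjusted p of each list, EIF2AK3 and BLOC1S1. The AARS1 row was found by an older symbol. Gene models came from GENCODE 44 and promoters from RefSeq (GRCh38.p14). Alternatives were DESeq2 1.42.0, limma-voom (limma 3.58.1), library size without TMM, no count filter, at least 10 counts in every library, the replicate number as a block, and each library left out.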

Additional observations from a re-analysis of the deposited data

How the results depend on the processing

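Of the 10 genes, 1 was called, against 2 with DESeq2, 2 with library size without TMM, 2 with no filter on low counts and 2 with limma-voom, HSPA5 being the added gene in each, and from 0 to 2 with 1 library left out. Leaving out sgCtrl #2, sgCOX4I1 #2 or sgCOX4I1 #3 gave 0, and leaving out sgCtrl #1 gave 2. The median log2 fold change of the 10 stayed above 0 in all 12 alternatives, from 0.077 to 0.19 with 1 library left out. Direction reversed for SDF2L1 with limma-voom (-0.001), without sgCtrl #2 (-0.020) and without sgCOX4I1 #2 (-0.070), and for DNAJB9 without sgCtrl #2 (-0.007), none near the threshold, and with 1 library left out DNAJB9 ran from -0.007 to 0.31 and SDF2L1 from -0.070 to 0.085. Of all genes, 247 were called, against 436 with DESeq2, 537 with no filter on low counts and 24 to 561 with 1 library left out. Of the 84 other ER genes, 1 was called, against 3 with no filter on low counts and 0 to 3 with 1 library left out, and of the PERK and ATF4 arm 9, against 4 to 10 with 1 library left out, the 4 being without sgCtrl #2. The COX4I1 log2 fold change was -1.21, and passed the threshold at -1.205 with no filter on low counts and at -1.40 with limma-voom, but not with DESeq2 (-1.20, adjusted p = 0.243). With 1 library left out it ran from -1.89 to -0.95, and it passed without sgCtrl #1 (adjusted p = 0.0193), sgCtrl #3 (0.0372) or sgCOX4I1 #2 (3.37e-06). The causes were not tested.

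The labels do not state whether the replicate numbers pair the samples, and the main test did not use them. Same-numbered libraries had correlations of their deviations from the group means of 0.38, -0.024 and 0.29 for numbers 1, 2 and 3. Across numbers 1 and 3 the correlations were -0.32 and -0.38, and not every library correlated best with its own number. Pairing cannot be decided from these values alone. With the replicate number as a block, 1408 genes were called in all, 3 of the 10 (ATF6 and HSPA5 in addition), 9 of the other ER genes, and COX4I1 at -1.39.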
